A study of Mus musculus with 9 samples.

Results

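A set of 40 genes of the G2 phase and of mitosis was followed through 3 groups of mouse pancreatic cancer cells. The members were chosen by name: a gene entered where a probe set of the array carried its symbol and no other, and the brightest such probe set over all 9 arrays stood for it. That gave 39 of the 40 genes, among 18193 genes with a probe set of their own. No probe set carried the symbol of Ccnb1 alone, and this gene was not analysed here. All 39 passed the filter on low values, which asked for a log2 level no lower than 5 on 3 or more arrays and which 15235 genes passed in all.

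All groups were the cell line 170#3, of mixed C57BL6, FVB and 129Sv background, kept as a monolayer in serum-containing medium and stably transfected. The first group carried a control. Another expressed beta-catenin, through which Wnt signals reach TCF target genes. The last expressed ICAT, an inhibitor that competes with TCF factors for beta-catenin. Each group had 3 arrays that the labels call biological replicates. The labels used here give neither the construct of the control nor the promoters of the transgenes, nor whether a group is 1 clone, so the p-values speak of the spread among these arrays and no further. All values are RMA log2 expression, in which 1 unit is a 2-fold difference, and levels of different genes are not compared because each probe set has its own brightness. Differences were tested with limma over all 15235 genes, with Benjamini-Hochberg adjustment. A gene counts as called, as rising or as falling where its adjusted p lay under 0.05.

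Array medians lay between 6.21 and 6.29, and replicates of a group correlated at 0.994 or higher over all probe sets. Ctnnb1, which encodes beta-catenin, lay 1.15-fold above control with beta-catenin and 1.14-fold above it with ICAT (adjusted p = 0.0353 and 0.0364), and Ctnnbip1, which encodes ICAT, was 1.1-fold above control in both lines (adjusted p = 0.208 and 0.189). Probes of this array type lie near the end of the transcript, which a transfected coding sequence may lack. These values therefore check no label. Of 9 epithelial and ductal markers 8 had a mean of at least 5 in control cells and 7 in each transfected line. Cdh1 lay under the filter in all groups (mean 3.48 in control cells), and Epcam had a mean of 7.48 in control cells. Of 7 immune markers with a probe set, 5 had a mean of at least 5 in every group, among them Cd14 (8.28 in control cells). Ptprc and Itgam lay under the filter in every group. Of 5 endothelial markers 3 had a mean of at least 5 in control cells, among them Pecam1 (5.19), which lay below every array median. The level of 5 is only the filter, and a mean above it does not show that a marker is expressed. Cdh5 and Tek lay under the filter in every group.

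Cells enter mitosis when cyclin B and CDK1 become active, and they leave it when the anaphase-promoting complex marks cyclin B and securin for destruction. Between these events spindle motors and kinetochores attach and align the chromosomes, and the spindle checkpoint holds the complex back until every chromosome is attached. Most of the transcripts concerned are made late in the cell cycle and are low in resting cells, so they are widely used as markers of dividing cells. In bulk RNA, fewer cells in G2 and mitosis and less of a transcript in each such cell cannot be told apart.

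ICAT cells held less of nearly every member transcript. Of 39 members 34 fell and none rose against control (limma), where 18.5 percent of all tested genes fell and 18.7 percent rose (37.2 percent called). No member was higher at an unadjusted p under 0.05 either, since all 39 differences lay below 0, from -0.88 to -0.16. Their median was -0.48, beside -0.01 for all tested genes. All 3 ICAT arrays lay below all 3 control arrays for 36 members, against 23.3 percent of all genes (46.2 percent without overlap in either direction). The 5 members not called were Ccnb2, Ccna2, Nusap1, Ect2 and Cdca3.

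Cell type marker genes also moved in ICAT cells. All 7 tested fibroblast markers of 9 were higher in ICAT cells, where 18.7 percent of all tested genes rose. The summed log2 level of all 9, tested or not, was 79.01 to 81.32 on ICAT arrays against 70.21 to 70.54 on control and 70.73 to 72.56 on beta-catenin arrays. Of these, Col1a2 already had a mean of 12.17 in control cells, and Lum and Fap lay under the filter in all groups. Of 7 tested epithelial and ductal markers 4 were higher, with Krt18 rising from 7.23 to 8.51, Krt8 from 6.45 to 7.34 and Krt19 from 5.28 to 5.55. None of 5 immune or 3 endothelial markers was called in ICAT cells, and at an unadjusted p under 0.05 1 immune marker was higher. The part of these shifts in the mitotic decrease was not tested.

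Beta-catenin cells did not share this pattern. There 8 members rose and 5 fell, with background rates of 19.6 and 15.4 percent, so the called share of the members (33.3 percent) was near that of all genes (34.9 percent). The median difference was 0.12, beside -0.03 for all genes, and single values ran from -0.37 to 0.74. Groups did not overlap for 30 members, 19 with all beta-catenin arrays above control and 11 with all below, against 27.8 and 26.3 percent of all genes (54.1 percent in all). Marker genes changed in this line too. Of the 7 tested fibroblast markers Pdgfra (4.11-fold) and Col1a1 (2.2-fold) rose and Col1a2 (2.63-fold) and Col3a1 (1.36-fold) fell, the immune markers Cd68 and Cd14 and the endothelial marker Emcn fell, and no epithelial marker was called. Their part in the member values was not tested.

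**Figure D1:**
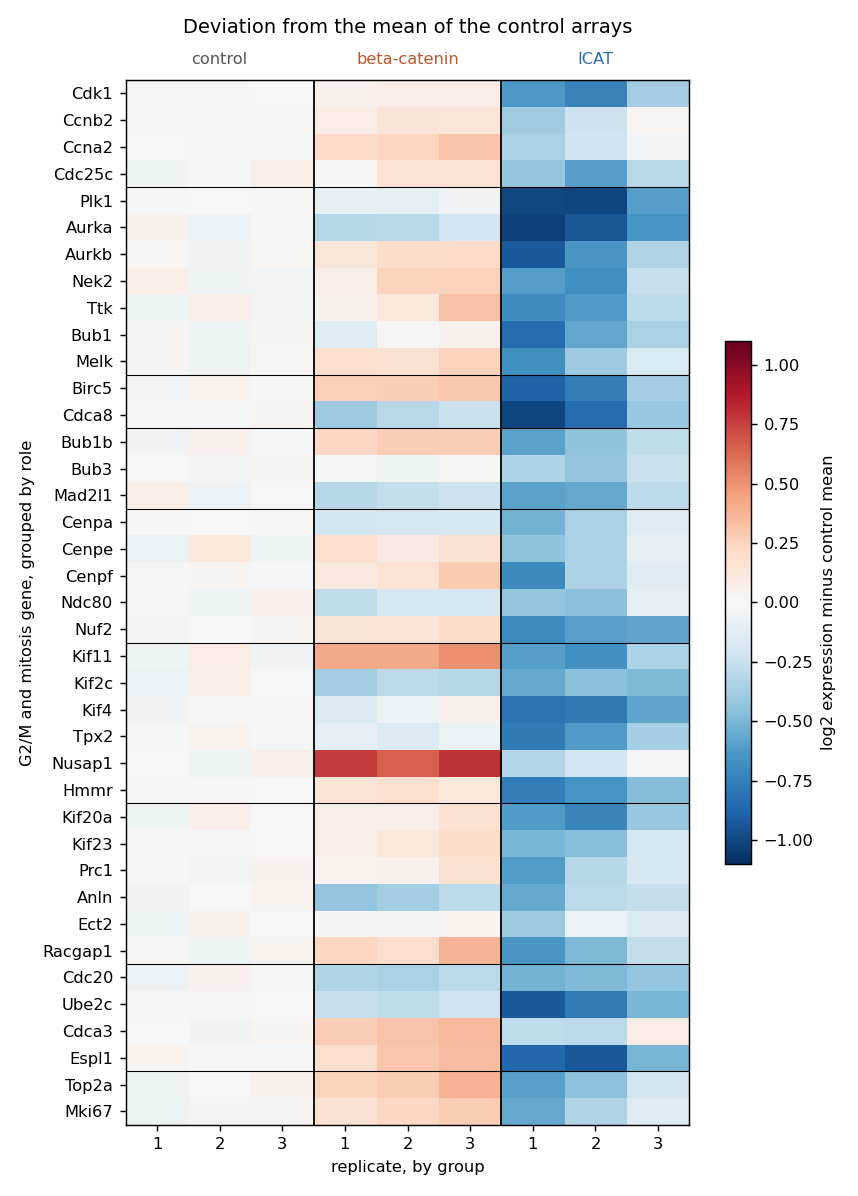
Log2 expression of 39 G2/M and mitosis genes (rows, grouped by role) on 9 arrays (columns, by group and replicate), as the difference from the mean of the 3 control arrays. ICAT columns are blue for nearly all genes and palest on replicate 3, and beta-catenin columns hold red rows such as Nusap1 and Kif11 beside blue rows such as Anln and Cdc20.

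The ICAT arrays were not alike. The median deviation of the members from the control mean was -0.61 on ICAT replicate 1, -0.49 on replicate 2 and -0.28 on replicate 3. ICAT replicate 3 was the highest of the ICAT arrays for 37 of 39 members, against 43.9 percent of all tested genes. It was also the array nearest to control for 33 of the 34 members that fell, for 80.1 percent of the 2786 other genes that fell in ICAT cells and for 22.6 percent of the 2850 that rose. Between ICAT arrays the members had a median SD of 0.192, against 0.121 for all tested genes. Between control arrays, by contrast, the members spread less than all tested genes (0.0395 against 0.0567). Without ICAT replicate 3, 38 members were called lower with a median of -0.54, and without ICAT replicate 1 there were 33 with a median of -0.45. In beta-catenin cells the medians were 0.06, 0.11 and 0.17 on replicates 1, 2 and 3, and replicate 3 was the highest for 34 of 39 members, against 40.1 percent of all genes.

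Members of this family are known to share promoter elements, the cell cycle homology region bound by the MuvB core of the DREAM and B-Myb complexes and the CCAAT box bound by NF-Y. RefSeq promoter windows (GRCm38.p6, 250 bases before to 50 after the annotated start) were found for 35 of the 40 members. The letters TTTGAA or TTCGAA, on either strand, occurred in the windows of 27 members (77.1 percent), against 21.7 percent of 27025 genes with a window and 16.6 percent of those tested here. CCAAT on either strand occurred in 27 (77.1 percent), against 41.1 and 42.4 percent. TTCGAA reads the same on both strands, and the last letter of CCAAT can be the first of TTTGAA. Windows with both kinds of match were found for 24 members (68.6 percent), against 8.61 percent of all genes. These are matches of letters, and no binding was measured.

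Stretches of 100 bases before the start are shown for 8 members, 6 with both motifs there and 2 with neither in the whole window. Capitals mark TTTGAA, which reads TTCAAA when it lies on the other strand, and CCAAT, which then reads ATTGG. Cdk1, Cdc20 and Ube2c were among the genes lower in ICAT cells, Espl1, Kif11 and Top2a went opposite ways in the transfected lines, and the genes without a match, Nuf2 and Nusap1, differed in response, as Nuf2 fell in ICAT cells and Nusap1 rose in beta-catenin cells.
Cdk1, chr10:69352913-69353012, minus strand: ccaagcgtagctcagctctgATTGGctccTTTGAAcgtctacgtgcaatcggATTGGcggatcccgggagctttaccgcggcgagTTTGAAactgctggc
Cdc20, chr4:118437344-118437443, minus strand: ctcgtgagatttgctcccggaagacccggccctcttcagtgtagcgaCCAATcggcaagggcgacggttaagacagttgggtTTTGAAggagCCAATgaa
Ube2c, chr2:164769829-164769928, plus strand: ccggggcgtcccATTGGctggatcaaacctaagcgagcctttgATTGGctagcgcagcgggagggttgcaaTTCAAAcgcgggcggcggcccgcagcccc
Espl1, chr15:102296193-102296292, plus strand: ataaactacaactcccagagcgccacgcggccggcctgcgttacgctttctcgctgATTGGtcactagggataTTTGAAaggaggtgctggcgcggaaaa
Kif11, chr19:37376282-37376381, plus strand: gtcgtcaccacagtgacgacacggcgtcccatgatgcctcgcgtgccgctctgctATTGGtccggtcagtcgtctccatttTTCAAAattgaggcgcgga
Top2a, chr11:99024190-99024289, minus strand: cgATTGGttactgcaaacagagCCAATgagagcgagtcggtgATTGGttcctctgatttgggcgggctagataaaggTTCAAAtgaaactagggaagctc
Nuf2, chr1:169531465-169531564, minus strand: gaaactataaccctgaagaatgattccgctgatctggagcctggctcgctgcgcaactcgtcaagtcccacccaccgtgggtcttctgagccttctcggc
Nusap1, chr2:119618198-119618297, plus strand: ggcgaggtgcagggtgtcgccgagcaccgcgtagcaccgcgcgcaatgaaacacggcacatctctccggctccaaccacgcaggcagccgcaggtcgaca

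Of the 40 matches of the cell cycle homology region letters in the 38 windows of these 35 members, 28 lay within 50 bases of the annotated start, with a median position of -10. The 70 matches of CCAAT had a median position of -69.5, and 24 lay within 50 bases. Bub3, Ect2 and Prc1 have overlapping windows, and sites shared by these windows were counted once for each. Positions of matches in other genes were not counted. The median ICAT difference was -0.46 for 27 tested members with TTTGAA or TTCGAA and -0.48 for 7 without, and both groups held genes that were not called. In beta-catenin cells the corresponding medians were 0.06 and 0.19. No test was made of these differences.

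**Figure D2:**
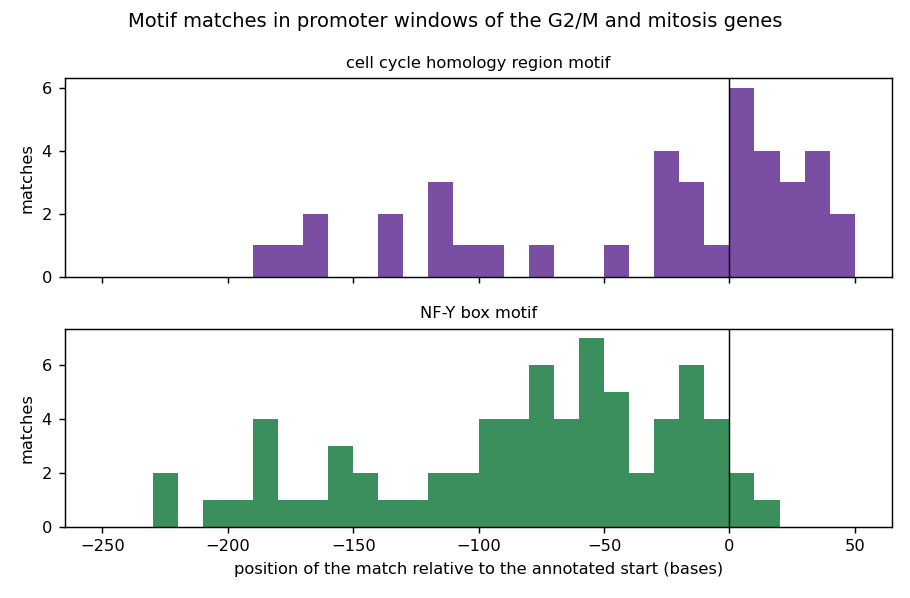
Positions of motif matches in the promoter windows of 35 G2/M and mitosis genes, in bins of 10 bases, relative to the annotated start at 0, in a window from 250 bases before it to 50 after. Matches of the cell cycle homology region letters (top) gather around the start with a median of -10, and those of the NF-Y box (bottom) lie further before it with a median of -69.5. Sites in the overlapping windows of Bub3, Ect2 and Prc1 are counted once for each window.

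The cyclin-CDK1 module drives entry into mitosis. Cdk1, its catalytic subunit, read 11.31, 11.35 and 11.34 in control, 11.38, 11.41 and 11.41 in beta-catenin and 10.70, 10.60 and 10.95 in ICAT cells (replicates 1 to 3). The ICAT arrays lay below all others. Cdk1 fell 1.5-fold in ICAT cells (log2 difference -0.58 ± 0.0829 SE, n = 3 per group, limma, adjusted p = 0.000219), and its difference in beta-catenin cells was 0.06 (adjusted p = 0.597). Cdc25c, a phosphatase that activates CDK1, fell 1.36-fold in ICAT cells (adjusted p = 0.00136). Ccna2, which encodes cyclin A2, rose 1.19-fold with beta-catenin, from 11.24, 11.26 and 11.23 to 11.45, 11.48 and 11.56 (adjusted p = 0.0318), with no overlap. In ICAT cells it read 10.89, 11.02 and 11.21 (adjusted p = 0.0718), while its second probe set, in a fit over all probe sets, was lower by -0.49 there and called. That probe set was not called in beta-catenin cells (0.07), and with the mean of both the beta-catenin call was lost (0.16, adjusted p = 0.193). The cyclin B2 gene Ccnb2 was called in neither line, with differences of 0.12 and -0.20.

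All 7 mitotic kinases fell in ICAT cells, and the 2 largest decreases among all members, those of Aurka and Plk1, were in this group. Aurka, whose product matures centrosomes and builds the spindle poles, read 10.95, 10.84 and 10.92 in control and 9.88, 9.96 and 10.25 in ICAT cells. Every ICAT array was below every other array, with beta-catenin cells in between at 10.59, 10.60 and 10.69. Aurka was the only kinase of the 7 called in beta-catenin cells, where it fell 1.21-fold (log2 difference -0.28 ± 0.0908 SE, adjusted p = 0.0332). The call was lost with the mean of all Aurka probe sets (-0.18), among other alternatives. In ICAT cells the difference was -0.88 ± 0.0908 (adjusted p = 2.67e-05).

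Plk1, the polo-like kinase that acts from mitotic entry to cytokinesis, read 10.48, 10.49 and 10.50 in control, 10.40, 10.38 and 10.45 in beta-catenin and 9.49, 9.48 and 9.88 in ICAT cells. Control and beta-catenin arrays lay close together, and ICAT arrays lay well below. Plk1 differed by -0.87 ± 0.0956 in ICAT cells (adjusted p = 3.9e-05) and by -0.08 ± 0.0956 in beta-catenin cells (adjusted p = 0.565). Aurkb, the kinase of the chromosomal passenger complex, fell 1.55-fold in ICAT cells (9.12, 9.06 and 9.12 against 8.18, 8.46 and 8.77, adjusted p = 0.00131). Bub1, a checkpoint kinase at the kinetochore, fell 1.51-fold, and Ttk, which starts checkpoint signalling, 1.45-fold. Nek2, a kinase of centrosome separation, fell 1.42-fold (-0.51, and -0.30 with the mean of its probe sets), and Melk, a kinase abundant in dividing cells, fell 1.33-fold. In beta-catenin cells Aurkb, Nek2, Ttk and Melk had differences from 0.16 to 0.20 that were not called.

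The passenger complex also holds survivin and borealin. Birc5, which encodes survivin, read 11.24, 11.31 and 11.26 in control, 11.53, 11.54 and 11.57 in beta-catenin and 10.38, 10.51 and 10.90 in ICAT cells, so the 3 groups did not overlap. It fell 1.59-fold in ICAT cells (adjusted p = 0.000546) and lay 0.28 log2 units above control in beta-catenin cells without passing (adjusted p = 0.0697). Cdca8, which encodes borealin, fell 1.69-fold in ICAT cells (adjusted p = 0.000576). In beta-catenin cells it lay below control, at 10.87, 10.97 and 11.03 against 11.26, 11.26 and 11.30, and did not pass (adjusted p = 0.0684). A second bright probe set of Cdca8 was called lower there in a fit over all probe sets (-0.28, limma, adjusted p = 0.0462), and the remaining one was not called (-0.21). Birc5 and Cdca8 both passed in beta-catenin cells when only the 6 arrays of that comparison were fitted.

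Products of the spindle checkpoint genes keep CDC20 from the anaphase-promoting complex. All 3 non-kinase members fell in ICAT cells: Mad2l1 1.39-fold, Bub1b, which encodes BubR1, 1.35-fold and Bub3 1.27-fold (adjusted p = 0.000907, 0.00104 and 0.00151). In beta-catenin cells they parted. Mad2l1 fell from 11.69, 11.56 and 11.63 to 11.31, 11.36 and 11.39 (adjusted p = 0.0248), and Bub1b rose from 10.15, 10.24 and 10.18 to 10.42, 10.46 and 10.46 (adjusted p = 0.0236). Neither overlapped control. A second bright probe set of Bub1b rose as well, by 0.32, but the remaining dim one differed by -0.12 without passing, and with the mean of all Bub1b probe sets the call was lost (0.15, adjusted p = 0.0789). For Bub3, 1 of the other probe sets rose by 0.27, although the brightest one did not differ beyond its error (-0.01 ± 0.0642).

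Among centromere and kinetochore genes all 5 fell in ICAT cells and none was called in beta-catenin cells. At an unadjusted p under 0.05 Nuf2 was higher there and Ndc80 and Cenpa lower. Nuf2 and Ndc80 encode partner subunits that together grip spindle microtubules. Nuf2 read 9.37, 9.40 and 9.43 in control and 8.71, 8.80 and 8.82 in ICAT cells, a 1.54-fold decrease with the smallest SE of all members (-0.62 ± 0.0591, adjusted p = 1.48e-05). Ndc80 fell 1.26-fold (9.14, 9.10 and 9.21 against 8.72, 8.69 and 9.04, adjusted p = 0.013). In beta-catenin cells Nuf2 lay at 9.54, 9.55 and 9.60, all above control (adjusted p = 0.0522), and Ndc80 at 8.87, 8.96 and 8.97, all below (adjusted p = 0.0869). Cenpa, the centromeric histone gene, fell 1.27-fold in ICAT cells. Cenpf, which encodes a large outer kinetochore protein, fell 1.31-fold, and Cenpe, which encodes the kinetochore kinesin, fell 1.23-fold. These were the calls least certain in ICAT cells. That of Cenpa was lost with the mean of its probe sets (-0.07). Cenpe was lost without ICAT replicate 1 or 2 or control replicate 2, Cenpf without any 1 of the control replicates, and Ndc80 without ICAT replicate 2 or control replicate 3.

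Spindle motors and microtubule binders showed the widest range in beta-catenin cells. Nusap1, whose product bundles spindle microtubules near chromosomes, rose 1.67-fold, from 10.01, 9.96 and 10.07 to 10.78, 10.67 and 10.81 (log2 difference 0.74 ± 0.0828, adjusted p = 3.02e-05). It was the largest difference of any member in that line. In ICAT cells Nusap1 read 9.69, 9.80 and 10.00, overlapping control (adjusted p = 0.108). Its dim second probe set was called in neither line (0.25 and 0.07).

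Kif11, the motor that pushes spindle poles apart, read 9.28, 9.41 and 9.29 in control, 9.74, 9.74 and 9.84 in beta-catenin and 8.72, 8.66 and 8.98 in ICAT cells. The 3 groups did not overlap, with beta-catenin cells highest and ICAT cells lowest. Kif11 rose 1.36-fold with beta-catenin (adjusted p = 0.00168) and fell 1.46-fold in ICAT cells (adjusted p = 0.00047). Kif2c, a kinesin that shortens microtubules to correct wrong attachments, fell in both lines, from 10.48, 10.61 and 10.55 to 10.16, 10.26 and 10.23 with beta-catenin (adjusted p = 0.0016) and to 9.98, 10.09 and 10.05 with ICAT (adjusted p = 9.08e-05). With the mean of its probe sets the Kif2c differences shrank from -0.33 to -0.20 and from -0.51 to -0.32, both still called. The chromokinesin gene Kif4 fell 1.65-fold in ICAT cells, Hmmr, whose product binds hyaluronan and spindle microtubules, 1.55-fold and Tpx2, which encodes the activator of Aurora A at the spindle, 1.51-fold (-0.59, and -0.36 with the mean of its probe sets). None of these 3 was called in beta-catenin cells, with differences of -0.06, 0.15 and -0.11. A dimmer Hmmr probe set was higher there by 0.53 in a fit over all probe sets (limma, adjusted p = 0.00379). The remaining Hmmr probe sets were not called there, but Hmmr was called higher with the mean of its probe sets.

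**Figure D3:**
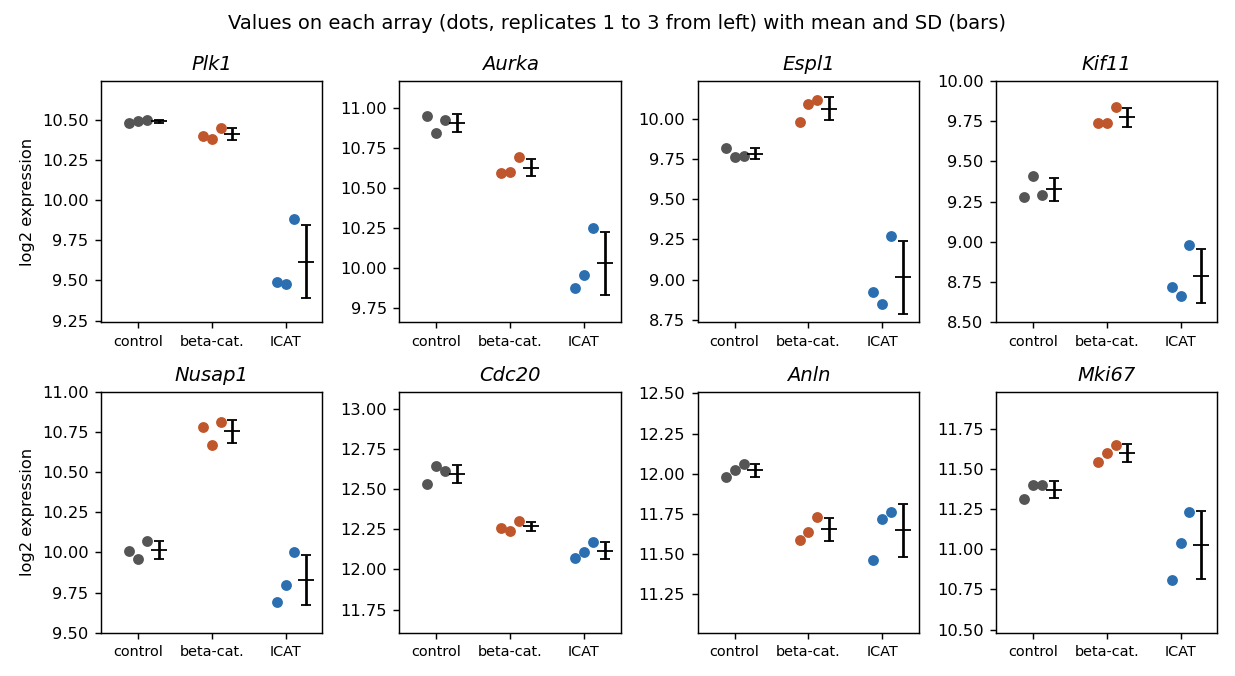
Log2 expression of 8 G2/M and mitosis genes on each of 9 arrays (dots, replicates 1 to 3 from left in each group) with the mean and SD of 3 arrays (black bars). Each vertical axis spans 1.5 log2 units, and ICAT arrays lie below control for all but Nusap1, whose beta-catenin arrays lie at 10.67 to 10.81.

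Genes of the spindle midzone and of cytokinesis fell in ICAT cells in 5 of 6 cases. Kif20a, a midzone kinesin gene, fell 1.5-fold (adjusted p = 0.000187). Racgap1 fell 1.38-fold, Kif23 1.31-fold and Prc1, whose product bundles midzone microtubules, 1.29-fold. Ect2, the exchange factor that activates RhoA at the equator, was 0.21 log2 units lower without passing (adjusted p = 0.0631). Anln, which encodes the contractile-ring scaffold anillin, read 11.98, 12.02 and 12.06 in control, 11.59, 11.64 and 11.73 in beta-catenin and 11.46, 11.72 and 11.76 in ICAT cells. Both transfected groups lay below control and overlapped each other. Anln fell 1.29-fold against control in each line (adjusted p = 0.00458 with beta-catenin and 0.00396 with ICAT), and the first call was lost with the mean of its probe sets. Racgap1 and Kif23 encode the subunits of centralspindlin. Racgap1 rose 1.2-fold with beta-catenin (9.94, 9.88 and 9.97 against 10.17, 10.12 and 10.30, adjusted p = 0.0452), a call lost without any 1 control or beta-catenin array, whereas Kif23 differed by 0.12 and was not called (adjusted p = 0.292). The second bright probe set of Racgap1 rose by 0.44.

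Exit from mitosis needs ubiquitination and separase. Cdc20, the activator of the anaphase-promoting complex, read 12.53, 12.64 and 12.61 in control, 12.26, 12.24 and 12.30 in beta-catenin and 12.07, 12.11 and 12.17 in ICAT cells, with no overlap between the groups. It fell 1.25-fold and 1.39-fold (adjusted p = 0.00138 and 0.000105), and its other 2 probe sets fell in both lines as well. Ube2c, the ubiquitin-conjugating enzyme of that complex, fell 1.66-fold in ICAT cells (12.26, 12.22 and 12.23 against 11.31, 11.47 and 11.73) and lay below control without passing in beta-catenin cells (-0.25, adjusted p = 0.0546). Espl1, which encodes separase, the protease that cuts cohesin, went the other way in beta-catenin cells. It read 9.82, 9.76 and 9.77 in control, 9.98, 10.09 and 10.12 in beta-catenin and 8.92, 8.85 and 9.27 in ICAT cells. Espl1 rose 1.21-fold with beta-catenin (adjusted p = 0.0471, lost without any 1 control or beta-catenin array) and fell 1.71-fold with ICAT (adjusted p = 0.000111). Cdca3, an adaptor in the degradation of the mitotic brake WEE1, rose 1.24-fold with beta-catenin (adjusted p = 0.0224), but not with the mean of its probe sets (0.00), and was not called in ICAT cells.

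The chromatin genes Top2a, which encodes the topoisomerase that untangles sister chromatids, and Mki67, which encodes the Ki-67 antigen of dividing cells, behaved alike in direction. Top2a read 11.53, 11.59 and 11.63 in control, 11.83, 11.86 and 11.97 in beta-catenin and 10.99, 11.13 and 11.38 in ICAT cells. Top2a rose 1.23-fold with beta-catenin (adjusted p = 0.0249) and fell 1.34-fold with ICAT (adjusted p = 0.00417), without overlap. With the mean of all its probe sets the beta-catenin difference was 0.13 and the call was lost (adjusted p = 0.224). Mki67 read 11.31, 11.40 and 11.40, then 11.54, 11.60 and 11.65, then 10.81, 11.04 and 11.23 in the same order. It fell 1.27-fold in ICAT cells (adjusted p = 0.0142) and was 0.22 log2 units higher in beta-catenin cells without passing (adjusted p = 0.0959).

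**Figure D4:**
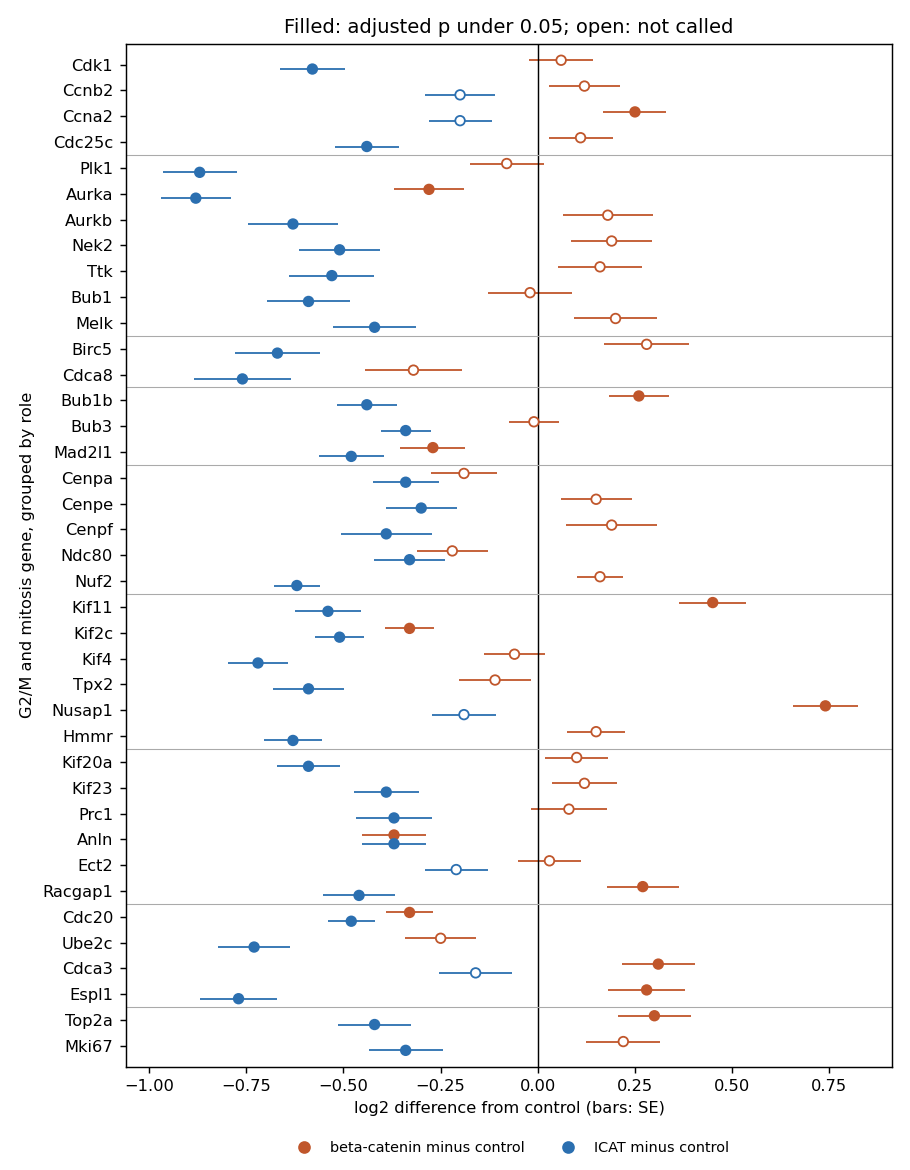
Log2 difference from control with its SE for 39 G2/M and mitosis genes in beta-catenin cells (orange) and ICAT cells (blue), 3 arrays per group; filled points have an adjusted p under 0.05. Blue points all lie below 0, from -0.88 to -0.16, and orange points lie on both sides, from -0.37 to 0.74.

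Both comparisons use the same control arrays, so the transfected lines were also set against each other. Beta-catenin cells held more of 34 members than ICAT cells (limma, where 40.4 percent of all tested genes were called, 22.5 percent higher and 17.9 percent lower), none was lower, also at an unadjusted p under 0.05, and the median difference was 0.57 beside -0.01 for all genes. All beta-catenin arrays lay above all ICAT arrays for 35 members, against 25.2 percent of all genes (47.6 percent without overlap in either direction). The largest differences were those of Espl1 (1.05 ± 0.0987, adjusted p = 9.46e-06), Kif11 (0.99 ± 0.0856, adjusted p = 5.23e-06), Birc5 (0.95 ± 0.109, adjusted p = 4e-05) and Nusap1 (0.93 ± 0.0828, adjusted p = 6.63e-06). Mad2l1, Cenpa, Ndc80, Anln and Cdc20 were not called, with differences of 0.21, 0.15, 0.11, 0.01 and 0.15. All 5 had means below control in both lines. Of the 5 genes that fell in both lines, only Aurka (0.60, adjusted p = 0.000303) and Kif2c (0.18, adjusted p = 0.0437) differed between the lines, and the Kif2c call was lost under 12 of 20 alternatives.

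Called higher with beta-catenin and lower with ICAT were 5 members (Bub1b, Kif11, Racgap1, Espl1 and Top2a), beside 1.8 percent of all tested genes. The calls of the ICAT comparison held better than those of the beta-catenin comparison. Under all 20 alternatives 30 of the 34 ICAT calls were kept, but only 4 of the 13 beta-catenin calls: Kif11, Kif2c, Nusap1 and Cdc20. The count was 5 without control replicate 1 or beta-catenin replicate 2, and both times Ccna2, Aurka, Bub1b, Mad2l1, Racgap1, Cdca3, Espl1 and Top2a lost the call. It was 8 without control replicate 2, where Ccna2, Racgap1, Cdca3, Espl1 and Top2a were lost. Without control replicate 3 it was 7, with Ccna2, Aurka, Bub1b, Mad2l1, Racgap1 and Espl1 lost. It was also 7 without beta-catenin replicate 3, with Ccna2, Bub1b, Racgap1, Cdca3, Espl1 and Top2a lost. Without beta-catenin replicate 1 it was 9, with Aurka, Mad2l1, Racgap1 and Espl1 lost. Without ICAT replicate 3, by contrast, it was 22, and with only the 6 arrays of the comparison, whose error holds no ICAT array, it was 25. Over all genes the calls also changed, from 5321 to at most 6218 with 1 array left out and at most 8324 under the other alternatives. With the mean of all probe sets of a gene 10 members were called, 7 of them among the 13.

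Other probe sets of the members gave no call opposite to the brightest one. Of 47 further probe sets 42 were above the filter. In a fit over all probe sets 28 of these were lower and none higher in ICAT cells, beside 18 percent lower and 16.6 percent higher among all 27576 single-gene probe sets above the filter, and none was higher at an unadjusted p under 0.05. In beta-catenin cells 5 were higher and 3 lower, beside 17.7 and 14.3 percent.

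The rest of the mitotic machinery was read from lists of genes that are not members. Of all tested genes 18.5 percent fell and 18.7 percent rose in ICAT cells. In ICAT cells 17 of 23 further spindle and cytokinesis genes fell and none rose (median -0.47), and none was higher at an unadjusted p under 0.05. They were led by Ska3 (2.05-fold) and Ska1 (1.94-fold), subunits of a complex that tracks microtubule ends, and by Kif20b (1.75-fold). Of 26 further kinetochore and centromere genes 16 fell and none rose, also at an unadjusted p under 0.05 (median -0.28), with Zw10 1.80-fold, Knl1 1.53-fold and Cenpu 1.5-fold lower. Of 18 condensin and cohesin genes 10 fell and 2 rose. Cdca5, which encodes the cohesin protector sororin, fell 1.80-fold, and the alternative cohesin subunits Stag1 and Stag2 parted, Stag1 1.59-fold lower and Stag2 1.61-fold higher. Of 17 genes of the anaphase-promoting complex and its regulators 6 fell and 1 rose. Anapc15 fell 2.0-fold, the inhibitor gene Fbxo5 1.39-fold and Anapc1 1.35-fold. Genes that act earlier in the cycle were lower too. Of 25 genes of G1/S and DNA replication 21 fell and none rose, also at an unadjusted p under 0.05 (median -0.44), among them Ccne2 (2.02-fold), Tk1 (1.78-fold) and Ung (1.66-fold).

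**Figure D5:**
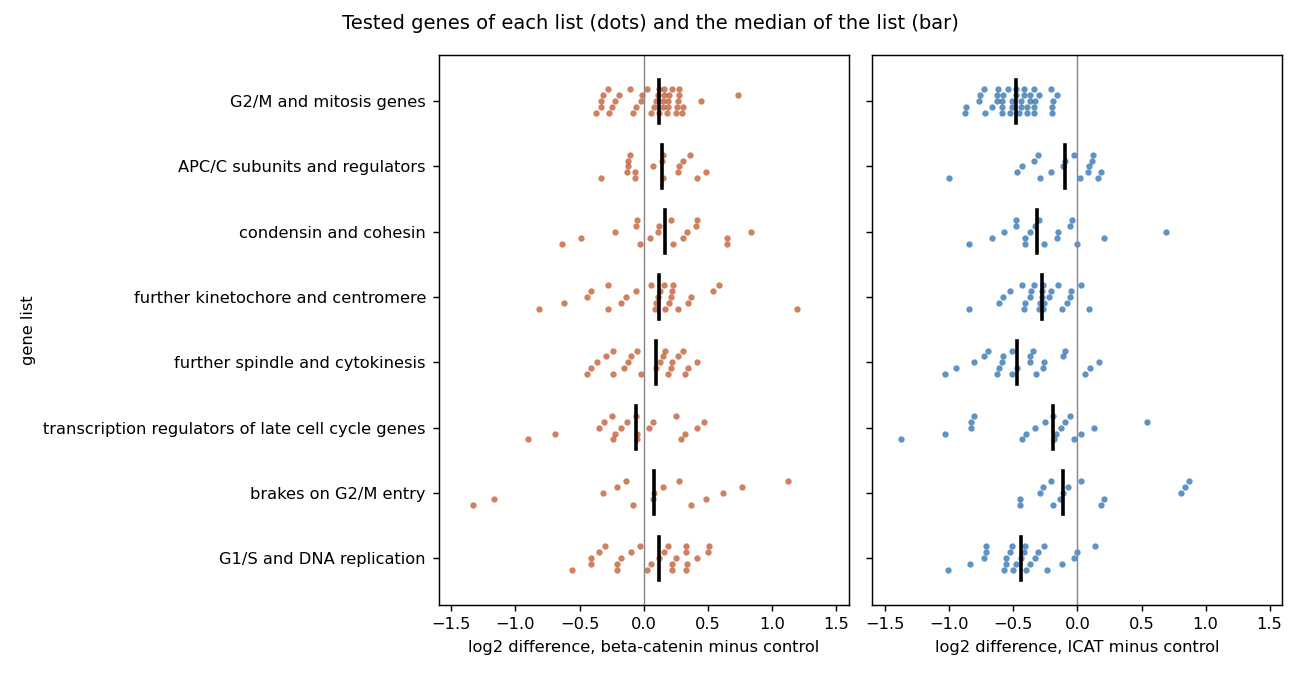
Log2 differences from control of the tested members and of 7 further gene lists in beta-catenin cells (left) and ICAT cells (right), 1 dot per gene and a black bar at the median of the list. ICAT medians run from -0.48 for the members and -0.47 for further spindle genes to -0.10 for subunits of the anaphase-promoting complex, and beta-catenin medians lie between -0.06 and 0.16.

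Regulators of these genes were read in the same way. Of 19 transcription regulators of late cell cycle genes 9 fell and 1 rose in ICAT cells. Mybl2, which encodes B-Myb, fell 2.6-fold, from a mean of 9.08 ± 0.0314 (SD, n = 3) to 7.69 ± 0.36 (adjusted p = 2.04e-05). Its relative Mybl1 fell 2.05-fold and the MuvB subunit gene Lin9 1.78-fold. In beta-catenin cells 5 of the 19 fell and 4 rose, where 15.4 percent of all tested genes fell and 19.6 percent rose. E2f8 was 1.87-fold and Mybl1 1.61-fold lower there, and the pocket protein gene Rbl2 was 1.39-fold higher. Among 15 brakes on mitotic entry 3 rose and 3 fell in ICAT cells, close to the shares of all genes (18.7 and 18.5 percent). Btg2 (1.82-fold), Gadd45a (1.79-fold) and Ccng2 (1.75-fold) rose, and Gadd45g (1.37-fold), Chek1 (1.37-fold) and Wee1 (1.16-fold) fell. In beta-catenin cells 5 of the 15 brakes rose and 2 fell, beside the same 19.6 and 15.4 percent of all genes. Those that fell were Plk3 (2.52-fold) and the CDK inhibitor gene Cdkn1a (2.25-fold), and Gadd45b was 2.19-fold higher.

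In beta-catenin cells the further mitotic lists held calls in both directions, beside 19.6 percent of all genes higher and 15.4 percent lower. For the further spindle list, with 4 of 23 either way, the shares were near these. Kinetochore and centromere genes had 6 higher and 6 lower, with the inner kinetochore gene Cenpi 2.29-fold higher and Zw10 1.77-fold and Cenpb 1.54-fold lower. Condensin and cohesin genes had 8 higher and 2 lower, with Smc1a 1.79-fold, Smc2 1.57-fold and Pttg1, which encodes the separase inhibitor securin, 1.57-fold higher. The anaphase-promoting complex list had 6 higher and 1 lower, the first led by Cdc23 (1.40-fold), Cdc26 (1.34-fold) and Anapc2 (1.28-fold). Further spindle and cytokinesis genes had 4 higher, among them Ska2 (1.34-fold), and 4 lower, among them Cep55 (1.36-fold) and Kif2a (1.33-fold). Of G1/S and replication genes 9 rose and 4 fell, with Mcm3 1.43-fold and Rfc3 1.41-fold higher and Ccne1 1.47-fold lower. With 1 array left out, these counts ranged widely, for example from 2 to 8 higher for further spindle and cytokinesis genes and from 6 to 12 higher for G1/S and replication genes.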

How the data were processed

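Per the submitters' processing notes, the deposited log2 expression values were RMA values that the authors computed with affy, 1 per probe set and array. RMA corrects background, equalises array distributions and summarises probes, so a shift of all genes would not be seen. The table has 45037 probe sets, of which 34945 have 1 gene symbol in the platform annotation, 932 several and 9160 none. Symbols were updated by Entrez identifier in the RefSeq gene table. The brightest single-gene probe set stood for a gene. Genes at a log2 level of 5 or more on 3 or more arrays were fitted with limma 3.58.1 in R 4.3.3, 1 mean per group, all 9 arrays, moderated two-sided tests (6 residual and 5.03 prior degrees of freedom) and Benjamini-Hochberg adjustment over all 15235 genes. An exact permutation test of 3 against 3 arrays cannot give a p under 0.1 and was not used. No arrays were identical, and none was dropped. The replicate number was no block, since it pairs no samples in the labels. The number of arrays limits the precision. Scripts were tested on simulated data. Named genes were all members and, from each further list and comparison with control, up to 3 called genes with the largest difference, beside the transfected genes and defining markers. Gadd45g, Chek1, Wee1, Pdgfra, Col3a1, Cd68, Cd14 and Emcn fall outside this rule and were chosen after their values were seen. Itgam, Cdh5, Tek, Lum and Fap also fall outside it and were named because they lay under the filter. Members and lists were chosen with earlier results of these data known. Alternatives were other filters, array scalings, weights, probe set choices, samples in the fit, a replicate block, a variance trend and leaving out each array.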

Additional observations from a re-analysis of the deposited data

Results flagged for a closer look

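Among the members, 5 were called in opposite directions in the transfected lines, higher with beta-catenin and lower with ICAT. That pattern was found for 1.8 percent of all 15235 tested genes. The genes were picked for it, so their beta-catenin minus ICAT differences (log2, 3 arrays each) are a description. They were 0.69 for the checkpoint gene Bub1b, 0.99 for the spindle motor gene Kif11, 0.73 for the centralspindlin gene Racgap1, 1.05 for the separase gene Espl1 and 0.72 for the topoisomerase gene Top2a. The beta-catenin call of Kif11 alone among them held under all 20 alternatives, whereas the ICAT calls of all 5 did.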

How the results depend on the processing

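The count of members lower in ICAT cells stayed between 34 and 38 under the 11 alternatives other than leaving out 1 array (1 of them fits only the 6 arrays of a comparison) and between 32 and 38 when 1 array was left out, and the count higher in beta-catenin than ICAT cells between 32 and 36 and between 31 and 38. The beta-catenin comparison with control depended on the processing. Its 13 calls (8 higher, 5 lower) became 28 (18 and 10) with array weights, 22 (13 and 9) with group weights and 25 (16 and 9) with only the 2 groups compared, and calls lower became 3 with array medians set equal, 8 with quantile normalization again and 8 with the replicate block. Leaving out 1 array gave 5 to 22 calls, 2 to 13 higher and 3 to 9 lower. The median of beta-catenin minus ICAT, 0.57, was 0.63 with array weights, 0.51 with the mean of all probe sets and 0.51 with quantile normalization, and 0.46 to 0.69 with 1 array left out. Signs turned for members that were not called: Bub1 in beta-catenin cells to 0.03 (mean of all probe sets) and 0.03 (without beta-catenin replicate 1; -0.06 to 0.03 over the left-out arrays), Tpx2 there to 0.01 (mean of all probe sets), and Anln between the lines to -0.03 (quantile normalization), -0.08 (without ICAT replicate 1) and -0.03 (without beta-catenin replicate 3; -0.08 to 0.06 over the left-out arrays). Of 780 gene values per comparison, 656, 756 and 744 kept direction and side of the threshold (beta-catenin, ICAT, beta-catenin against ICAT). With the replicate block 18, 35 and 34 members were called, including all 13, 34 and 34 of the fit without it. Deviations of same-numbered arrays correlated between -0.129 and 0.41, and those of arrays with different numbers between -0.416 and 0.333. With so few arrays these values cannot tell whether arrays of the same number were handled together. Over all genes, 8324 were called in beta-catenin cells with array weights against 5321. The count over all genes ran from 4914 to 8324 under the alternatives other than leaving out 1 array. With 1 array left out it ran from 4285 to 6218. The cause of these changes was not tested, except that fewer samples enter when arrays are left out.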

Other observations

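The letters of the cell cycle homology region were not equally common in the promoter windows of the other lists. TTTGAA or TTCGAA on either strand was found for 14 of 21 further spindle and cytokinesis genes, 8 of 15 condensin and cohesin genes, 11 of 24 further kinetochore genes, 5 of 14 transcription regulators and 4 of 16 genes of the anaphase-promoting complex. It was found for 4 of 21 genes of G1/S and DNA replication and for 0 of 13 brakes on G2/M entry. The share was 21.7 percent of all genes with a window and 16.6 percent of those tested. CCAAT was found for 14 of the 21 G1/S genes, 17 of the 24 kinetochore genes, 8 of the 14 transcription regulators and 7 of the 13 brakes. Of the other lists, it was found for 8 of 15 condensin and cohesin, 10 of 21 further spindle and 6 of 16 anaphase-promoting complex genes. Among all genes with a window the share was 41.1 percent, and among those tested 42.4 percent. The G1/S genes had a median ICAT difference of -0.44 beside -0.48 for the G2/M and mitosis genes. No test was made of these shares.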
